A study of Rattus norvegicus with 9 samples.

Results

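Alcam, Vcam1, Mcam and Cd200 are 4 cell surface genes of the immunoglobulin superfamily that are used to describe bone marrow mesenchymal stem cells (MSCs). They were taken by gene ID and make up 4 of the 26249 genes and gene-like units in the data. All 4 passed the filter on low values, with 13696 genes tested in the comparison of NPCs with MSCs and 14228 in the fit of all 9 libraries. The 9 stranded mRNA-seq libraries fall into 3 groups of 3, each made from 300 ng of total RNA. Untreated MSCs were rat bone marrow cells at passage 3, taken by the study's methods from 3 Sprague Dawley rats of 4 weeks. Neural progenitor-like cells (NPCs) were obtained from passage 3 MSCs by 3 days with EGF and bFGF, each at 20 ng/ml, and the last group received EGF, bFGF and IGF1 for 3 days. The labels do not tie a library to an animal, so that p-values measure only the spread between these libraries, which may be technical, and no source used here gives the dose of IGF1. Induction also changed the culture itself, to NeuroCult NS-A medium and ultra-low attachment plates, and cells cultured so without growth factors were not analysed here. Growth factors, medium and suspension therefore cannot be told apart as sources of a difference between NPCs and MSCs.

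Immunoglobulin superfamily adhesion molecules hold cells to each other through extracellular immunoglobulin-like domains, either by binding the same protein on the next cell or by binding an integrin. ALCAM (CD166) binds itself and the T cell protein CD6, and it is one of the long-used surface antigens of cultured MSCs. MCAM (CD146) marks pericytes, endothelial cells and clonogenic stromal cells of the marrow and binds laminins that contain the alpha 4 chain. VCAM1 (CD106) binds the integrin alpha 4 beta 1, keeps haematopoietic cells in the marrow and is a classical target of the transcription factor NF-kB. CD200 is a ligand that quiets myeloid cells through the receptor CD200R1.

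The promoters of Vcam1 and Alcam are shown because these 2 of the 4 genes moved the furthest, in opposite directions, and because NF-kB targets are described below. Each runs from 250 bases before to 50 bases after the start of the gene in RefSeq, on build GRCr8, and the capitals mark each match to GGGNNNNNCC, the loose form of the NF-kB binding motif, on either strand. A promoter of this kind was found for 3 of the 4 genes. The Vcam1 promoter is chr2:206742734-206743033 on the minus strand, and the Alcam promoter is chr11:61805207-61805506 on the plus strand.
Vcam1: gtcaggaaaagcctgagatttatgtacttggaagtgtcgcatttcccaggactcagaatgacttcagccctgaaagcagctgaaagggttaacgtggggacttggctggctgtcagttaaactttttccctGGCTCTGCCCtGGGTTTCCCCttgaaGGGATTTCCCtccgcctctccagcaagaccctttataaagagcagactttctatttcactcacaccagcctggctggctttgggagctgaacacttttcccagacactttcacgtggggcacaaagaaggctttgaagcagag
Alcam: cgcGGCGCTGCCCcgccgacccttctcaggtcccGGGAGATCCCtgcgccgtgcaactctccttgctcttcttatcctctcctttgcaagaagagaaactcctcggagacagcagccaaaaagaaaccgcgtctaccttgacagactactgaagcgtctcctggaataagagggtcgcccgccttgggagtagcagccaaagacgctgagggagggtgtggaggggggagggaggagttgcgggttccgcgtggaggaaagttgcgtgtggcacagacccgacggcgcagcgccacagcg
The loose motif is common, being held by 47.3% of the 33469 promoters of this length. A stricter form, the kB consensus, was held by 4.18% of them. It was found in Vcam1 at bases -93 to -84 from the start, and in Alcam at bases -216 to -207. These positions count the first base of the gene as 0. The second loose match of Vcam1 that reads the same way lies at bases -108 to -99. The promoter of Cd200 held 1 loose match and none of the stricter form. These are matches of letters and not measured sites.

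Levels are given as FPKM, a count of fragments divided by transcript length and by library size that Cufflinks wrote for each isoform, added over the isoforms of a gene. FPKM are per length, so levels of different genes can be set beside each other. Log2 fold changes were fitted with limma on log2(FPKM + 0.1) after median-of-ratios scaling, and a call needed a p of 0.05 or less after Benjamini-Hochberg adjustment over all genes tested, together with a log2 fold change of 1 or more in either direction. The depth implied by the deposited intervals was 39.7 to 51.8 M fragments per library and overlapped between the groups. The number of unannotated transcripts assembled did not overlap, at 28763 to 36570 in MSC libraries and 64618 to 90998 in induced libraries. The part of this difference in the levels and isoforms below was not tested. These are bulk libraries, in which fewer cells of a type and less RNA per cell cannot be told apart.

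Of the 4 genes, 3 were called in NPCs against MSCs, with Vcam1 higher and Alcam and Mcam lower, and Cd200 was not called. Among all genes tested in that comparison 21.6% were called, 11.7% higher and 9.88% lower. The same 3 genes were called in the same directions in cells induced with IGF1 against MSCs, where 21.4% of all genes were called, 11.7% higher. Both comparisons share the 3 MSC libraries. The libraries of NPCs and MSCs did not overlap for these 3 genes, as for 49.8% of all genes tested, and cells with IGF1 did not overlap with MSCs either, as for 54.5%, so that the lack of overlap alone does not set them apart. None of the 4 was called between the induced groups, where 3 of the 14228 genes were called by limma (0.0211%), and 661 genes were at an unadjusted p under 0.05.

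**Figure D1:**
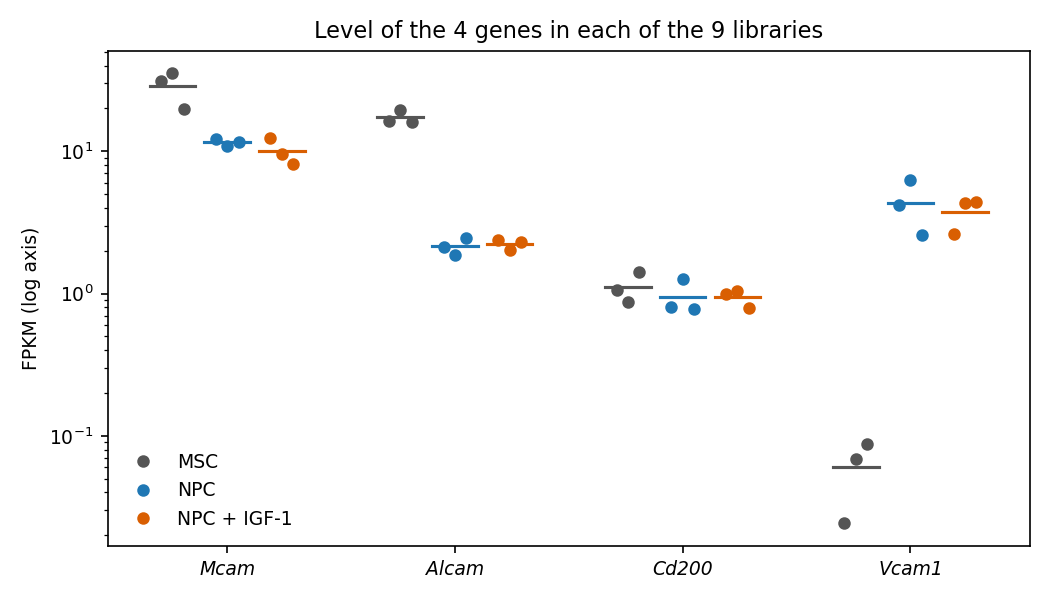
FPKM (log axis) of the 4 genes in each library, with points for the 3 libraries of a group and a line at the group mean. The MSC libraries lie above all induced libraries for Mcam and Alcam, overlap them for Cd200, and lie at 0.0873 FPKM or less for Vcam1, where no induced library is under 2.58.

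Alcam has 1 annotated transcript in the files (ENSRNOG00000001989, ENSRNOT00000002738, 16 exons, 2868 bases, chromosome 11, 53964952 to 54165636, plus strand). The coordinates are as the files write them, on a genome build that no source used here names. The MSC libraries held 16.2, 19.6 and 16.2 FPKM of Alcam. The NPC libraries held 2.13, 1.88 and 2.48 FPKM, and those with IGF1 held 2.37, 2.01 and 2.30. Every MSC library was above every induced library and the induced libraries overlapped each other. The mean fell from 17.3 ± 1.98 FPKM (SD, n = 3) in MSCs to 2.16 ± 0.2998 (SD, n = 3) in NPCs, which is 8.02 times lower, with a log2 fold change of -3.01 (SE 0.18, limma adjusted p = 5.39e-05). With IGF1 the mean was 2.23 ± 0.194 FPKM (SD, n = 3), and the log2 fold change against MSCs was -2.99 (SE 0.17, limma adjusted p = 4.48e-06). Among the 14228 genes of the larger fit, Alcam stood between the percentiles 74.7 and 78.6 in the MSC libraries and between 29.2 and 33.1 in the 6 induced libraries.

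Mcam was the most abundant of the 4 genes in all 9 libraries (ENSRNOG00000007726, ENSRNOT00000010463, 16 exons, 2903 bases, chromosome 8, 47091209 to 47099626, plus strand). The MSC libraries held 31.2, 35.4 and 19.7 FPKM. The NPC libraries were at 12.2, 10.8 and 11.6 FPKM, and the libraries with IGF1 at 12.5, 9.64 and 8.13. The third MSC library was well under the other two and still above all induced libraries. The mean was 28.8 ± 8.12 FPKM (SD, n = 3) in MSCs and 11.6 ± 0.699 (SD, n = 3) in NPCs, 2.49 times lower, with a log2 fold change of -1.33 (SE 0.19, limma adjusted p = 0.00194). With IGF1 the mean was 10.1 ± 2.22 FPKM (SD, n = 3) and the log2 fold change against MSCs was -1.57 (SE 0.20, limma adjusted p = 0.000361). Mcam fell by less than Alcam did, and the 95% intervals of their log2 fold changes, -1.78 to -0.89 for Mcam and -3.44 to -2.59 for Alcam, do not overlap.

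Vcam1 was close to the limit of detection in MSCs (ENSRNOG00000014333, ENSRNOT00000019377, 9 exons, 2954 bases, chromosome 2, 237158195 to 237177632, minus strand). The MSC libraries were at 0.0243, 0.0685 and 0.0873 FPKM, which the deposited intervals put at 3.0, 9.59 and 9.59 fragments. The exact Poisson 95% interval of the first is 0.619 to 8.77 fragments, or 0.005 to 0.071 FPKM, and covers counting error only. In the NPC libraries Vcam1 reached 4.20, 6.26 and 2.58 FPKM, and with IGF1 2.62, 4.32 and 4.37 FPKM. No induced library came near the MSC libraries, although the NPC libraries differed among themselves by more FPKM than those of any other member. The mean was 0.0600 ± 0.0323 FPKM (SD, n = 3) in MSCs and 4.35 ± 1.84 (SD, n = 3) in NPCs, a ratio of 72.5, and the log2 fold change was 4.68 (SE 0.36, limma adjusted p = 0.000136). With IGF1 the mean was 3.77 ± 0.994 FPKM (SD, n = 3), and the log2 fold change was 4.53 (SE 0.35, limma adjusted p = 2.13e-05). Vcam1 passed the filter of 0.1 FPKM only through the induced libraries, so that it could enter the test only as a gene that is higher there. Because the MSC level lies under the pseudocount of 0.1, the size of the Vcam1 value depends on it. With a pseudocount of 1 the log2 fold change of NPCs against MSCs was 2.24, and with 0.01 it was 5.93, both still called. In rank, Vcam1 moved from between the percentiles 3.52 and 7.96 of the tested genes in MSCs to between 33.1 and 49.8 in the induced libraries.

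Cd200 was low in all groups (ENSRNOG00000002141, ENSRNOT00000058453, 6 exons, 2235 bases, chromosome 11, 64474114 to 64501029, plus strand). The MSC libraries held 1.06, 0.867 and 1.42 FPKM. The NPC libraries were at 0.804, 1.27 and 0.779 FPKM and those with IGF1 at 0.990, 1.04 and 0.796. The 3 groups overlapped. The means were 1.12 ± 0.281 FPKM (SD, n = 3) in MSCs, 0.950 ± 0.274 (SD, n = 3) in NPCs and 0.942 ± 0.128 (SD, n = 3) with IGF1. The log2 fold change of NPCs against MSCs was -0.28 with a 95% interval of -1.003 to 0.44 (limma adjusted p = 0.509), and that of the cells with IGF1 against MSCs was -0.29 with an interval of -0.91 to 0.34 (limma adjusted p = 0.446). Differences within these intervals could not be told from none.

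**Figure D2:**
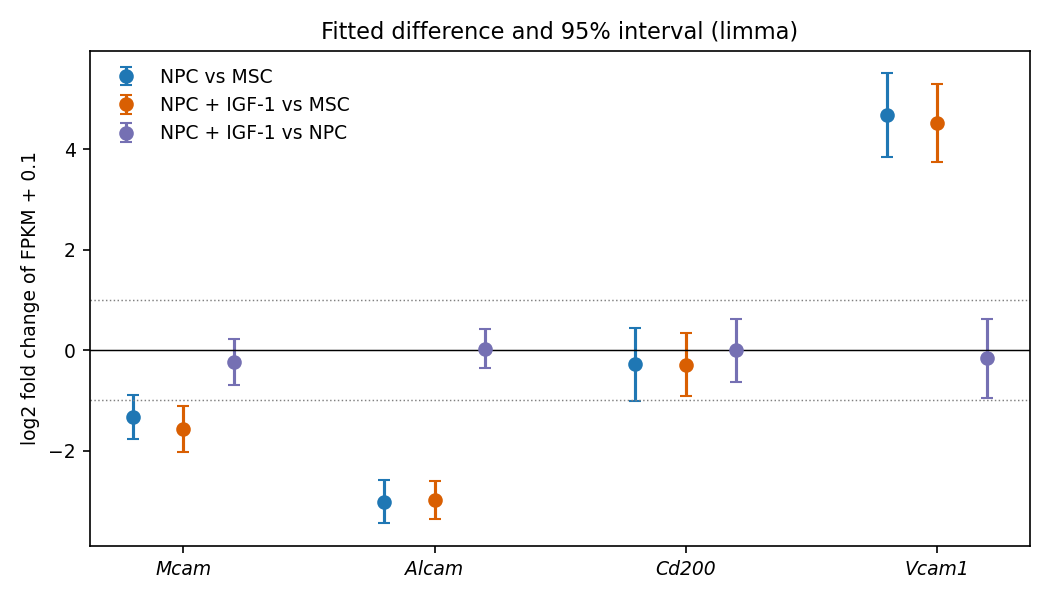
Fitted log2 fold change of FPKM + 0.1 with its 95% interval for each gene and comparison, the dotted lines marking the threshold of 1 in either direction. Alcam and Mcam lie below 0 and Vcam1 above it in both comparisons with MSCs, and all 4 intervals between the induced groups include 0.

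Addition of IGF1 to EGF and bFGF gave no called difference in any of the 4 genes. The log2 differences of cells with IGF1 from NPCs were 0.03 for Alcam (95% interval -0.35 to 0.42), -0.16 for Vcam1 (-0.94 to 0.62), -0.23 for Mcam (-0.68 to 0.22) and -0.0022 for Cd200 (-0.63 to 0.63), each with a limma adjusted p of 1. The 2 induced groups overlapped for each of the 4 genes. The interval was narrowest for Alcam and widest for Vcam1, and differences within it could not be told from none.

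The order of the 4 genes within a library does not depend on the scaling between libraries. In each MSC library the order was Mcam, Alcam, Cd200 and Vcam1 from high to low, and in each of the 6 induced libraries it was Mcam, Vcam1, Alcam and Cd200. Vcam1 and Alcam were close neighbours in the third NPC library and the first library with IGF1, where Vcam1 was 1.04 and 1.10 times Alcam. In the other induced libraries this ratio was 1.90 to 3.34, and in MSCs it was 0.0015 to 0.0054. Mcam was 1.22 to 1.93 times Alcam in MSCs, 4.69 to 5.77 times in NPCs and 3.53 to 5.26 times with IGF1. An exact two-sided permutation test of the log2 ratio of Mcam to Alcam gave p = 0.1 for NPCs against MSCs and p = 0.1 for cells with IGF1 against MSCs, which is the smallest p that 3 against 3 libraries allow.

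The summed FPKM of the 4 genes was 47.3 ± 9.33 (SD, n = 3) in MSCs, 19.0 ± 1.44 (SD, n = 3) in NPCs and 17.0 ± 1.44 (SD, n = 3) with IGF1. The part of Mcam in this sum overlapped between the groups, with 60.1% ± 6.44 in MSCs, 61.1% ± 6.74 in NPCs and 58.8% ± 7.95 with IGF1 (SD, n = 3 each). Alcam took 37.3% ± 5.29 of the sum in MSCs and 11.5% ± 2.50 in NPCs (SD, n = 3 each). Vcam1 took 0.135% ± 0.0923 in MSCs and 22.5% ± 8.09 in NPCs (SD, n = 3 each). These are shares of RNA and not of protein on the cell surface.

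**Figure D3:**
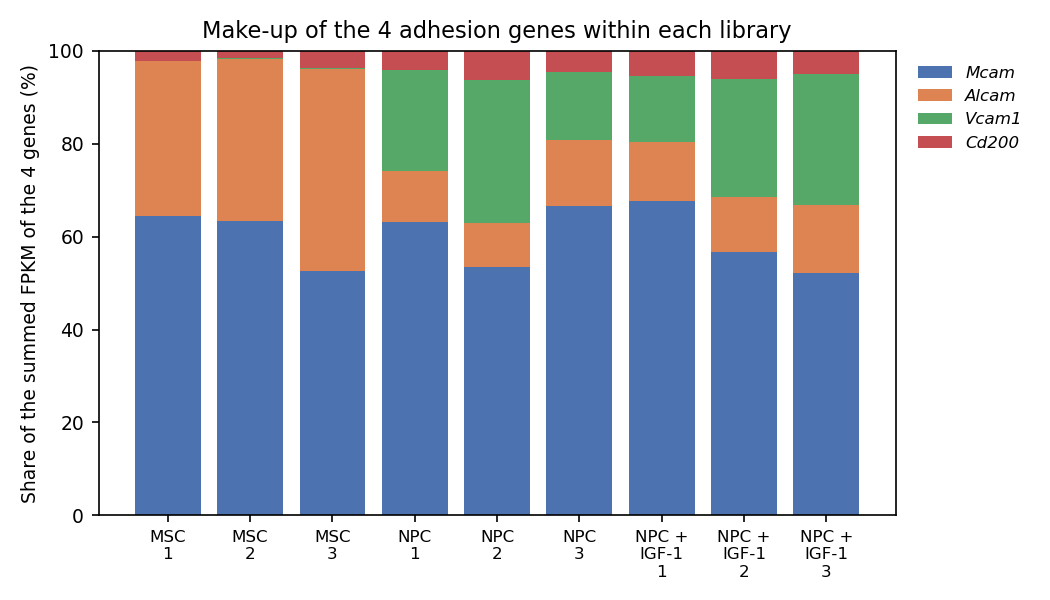
Share of each gene in the summed FPKM of the 4 genes, one bar for each library. Mcam holds 52.1 to 67.6% of every bar, and Vcam1 holds 14.2 to 30.9% of the induced bars and at most 0.233% of the MSC bars.

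The assembled isoforms were examined next, since a gene sum can hide a change of splice form. Each of the 4 genes has 1 annotated transcript in the files, and unannotated isoforms that share its exons were assembled in some libraries. For Mcam, an unannotated isoform was assembled in the second MSC library at 7.46 FPKM, in the second NPC library at 1.86 FPKM, and in the first and the third libraries with IGF1 at 3.33 and 1.94 FPKM. All 4 of these lacked exon 15 of 16, an exon of 118 bases (chromosome 8, 47098158 to 47098275). They made up 21.1%, 17.2%, 26.7% and 23.8% of the Mcam sum of their libraries. The remaining 5 libraries had no such isoform in the assembly, which does not show that the junction was absent there. The fall of Mcam was also seen in its annotated transcript alone, at 31.2, 27.9 and 19.7 FPKM in MSCs and 12.2, 8.98 and 11.6 FPKM in NPCs.

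**Figure D4:**
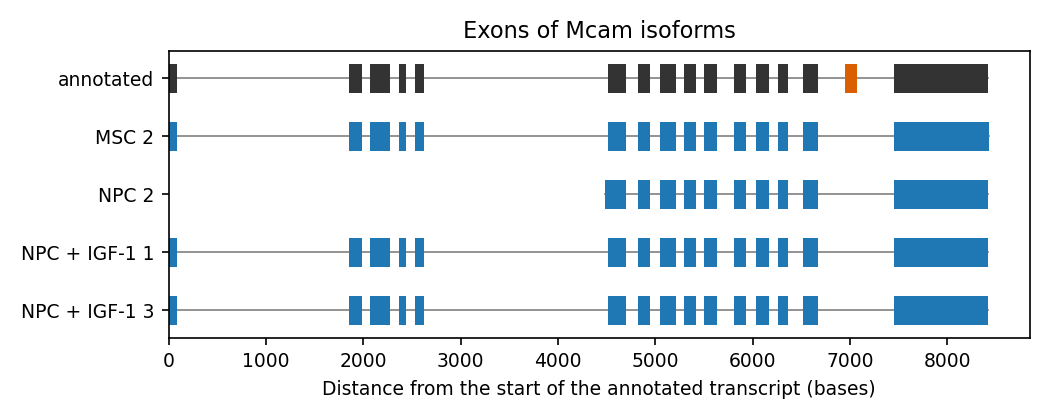
Exons (boxes) of the annotated Mcam transcript and of the 4 unannotated isoforms, by distance in bases from the start of the annotated transcript, each isoform named by its library. Exon 15, drawn in orange, is missing from all 4 unannotated isoforms, and that of the second NPC library also begins only near exon 6.

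Alcam is known to have a splice form that lacks a short exon close to the membrane and is cut from the cell surface more readily. In the third MSC library an isoform without exon 13, which has 39 bases (chromosome 11, 54149982 to 54150020), was assembled at 2.90 FPKM, or 17.9% of the Alcam sum of that library. The second MSC library held an isoform with all 16 exons and longer ends at 5.71 FPKM (29.1%). In the first MSC library and all 6 induced libraries only the annotated Alcam transcript was assembled. As for Mcam, a form that was not assembled in a library is not a form measured as absent.

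The unannotated isoforms of Vcam1 were partial. The one of the second NPC library (1.45 FPKM, 23.2% of the sum) held only the last exons, and that of the third NPC library (0.543 FPKM, 21.0%) held only the first 6. A further partial form in the first library with IGF1 was listed at 0 FPKM. Cd200 had 1 partial isoform, in the third NPC library, at 0.231 FPKM (29.7%). No isoform of Vcam1 or Cd200 that skipped an inner exon was assembled in any of the 9 libraries.

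Genes whose pattern over the 9 libraries was most like each member were ranked by Pearson's r of the log2 values among 1305 named genes of at least 1 FPKM on average. The r values are given as a description, since the 3 groups set most of each value. Alcam was followed most closely by Acat2, an enzyme of sterol synthesis (r = 0.997), by the protease Bace2 (r = 0.997) and by the transcription factor Arnt2 (r = 0.996). Acat2 was at 11.5 FPKM on average in MSCs and 1.86 in NPCs. Vcam1 was followed by Lifr, the receptor of leukaemia inhibitory factor (r = 0.996), by Tmem140 (r = 0.994) and by the desmosome-associated protein Ppl (r = 0.993). Lifr was at 0.390 FPKM on average in MSCs and 3.16 in NPCs. Mcam was followed by LOC290595 (r = 0.992), by the ceramide synthase Cers6 (r = 0.983) and by the methyltransferase Smyd2 (r = 0.981). The closest gene to Cd200, the ribosomal protein gene Rpl24, reached only r = 0.854, with group means of 377 FPKM in MSCs, 361 in NPCs and 376 with IGF1.

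Other adhesion molecules of the immunoglobulin superfamily were counted from a list of 54 symbols. Names could be given to few genes, since they came from the study's supplementary tables, used here in part: 12 of the 54 were found and 8 were tested, the 4 members among them. Of the 4 other genes 3 were lower in NPCs and 1 was not called, with a median log2 fold change of -1.37, against 0.03 over all genes tested. Of all genes tested 9.88% were called lower. All 3 lower genes were named in a table that the study filtered for change in these samples, so their number is not independent evidence of a direction. Cadm4, a nectin-like adhesion molecule, was at 58.2, 32.3 and 45.4 FPKM in MSCs and 18.1, 17.4 and 22.3 in NPCs (log2 fold change -1.27, SE 0.25, limma adjusted p = 0.00678). Pvr, the poliovirus receptor that also serves cell adhesion, was at 20.5, 20.5 and 7.13 FPKM in MSCs and 4.51, 3.67 and 9.39 in NPCs (log2 fold change -1.47, limma adjusted p = 0.0417). The Pvr groups overlapped, since the third MSC library lay under the third NPC library. Negr1, a neuronal adhesion molecule, fell from 2.23 FPKM on average to a listed 0 in all 3 NPC libraries, for which no fold is given. It passed the filter only through the MSC libraries, so that it could be tested only as a gene that is lower in NPCs. The fourth gene, Mpzl1, was at 12.6 FPKM on average in MSCs and 9.45 in NPCs and was not called. Vcam1 was thus the 1 gene called higher among the 8 that were tested.

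The partners of the 4 proteins that could be tested were not called in a single direction. Of 30 listed ligands, receptors, partners and sheddases, 6 were named and tested, of which 1 was higher, 2 were lower and 3 were not called in NPCs against MSCs. Over all genes tested 21.6% were called, 11.7% higher and 9.88% lower. Itgb1 and Ntn1 were named from the table filtered for change, so their calls are not independent evidence of a direction. Itgb1, the beta 1 integrin chain that pairs with alpha 4 to bind VCAM1, fell from 1086 FPKM on average in MSCs to 243 in NPCs (log2 fold change -2.23, limma adjusted p = 0.000127), opposite in direction to Vcam1. Ntn1, netrin-1, for which MCAM has been described as a receptor, rose from 0.0970, 0.0281 and 0.0934 FPKM in MSCs to 1.53, 1.798 and 1.33 in NPCs (log2 fold change 3.22, limma adjusted p = 0.000251). Like Vcam1, it passed the filter only through the induced libraries. Lama4 and Lamc1, chains of the laminin that MCAM binds, were at 67.4 and 47.1 FPKM on average in MSCs and 118 and 96.4 in NPCs, and their log2 fold changes of 0.79 and 0.96 did not reach the threshold of 1. Itgb2, the leukocyte integrin chain, was at 0.147 FPKM on average in MSCs and 0.358 in NPCs and was not called. Cd200r1l, a relative of the CD200 receptor, was low in all groups and fell from 0.275 to 0.0597 FPKM on average (log2 fold change -1.32, limma adjusted p = 0.0195). Cd200r1l reached 0.1 FPKM in all MSC libraries and in 1 NPC library, so that it passed the filter through the group where it is high, and its reads may be shared with near-identical receptor genes. The 3 calls of this list became 5 with quantile normalisation, 4 with no rescaling and 2 with a pseudocount of 1.

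**Figure D5:**
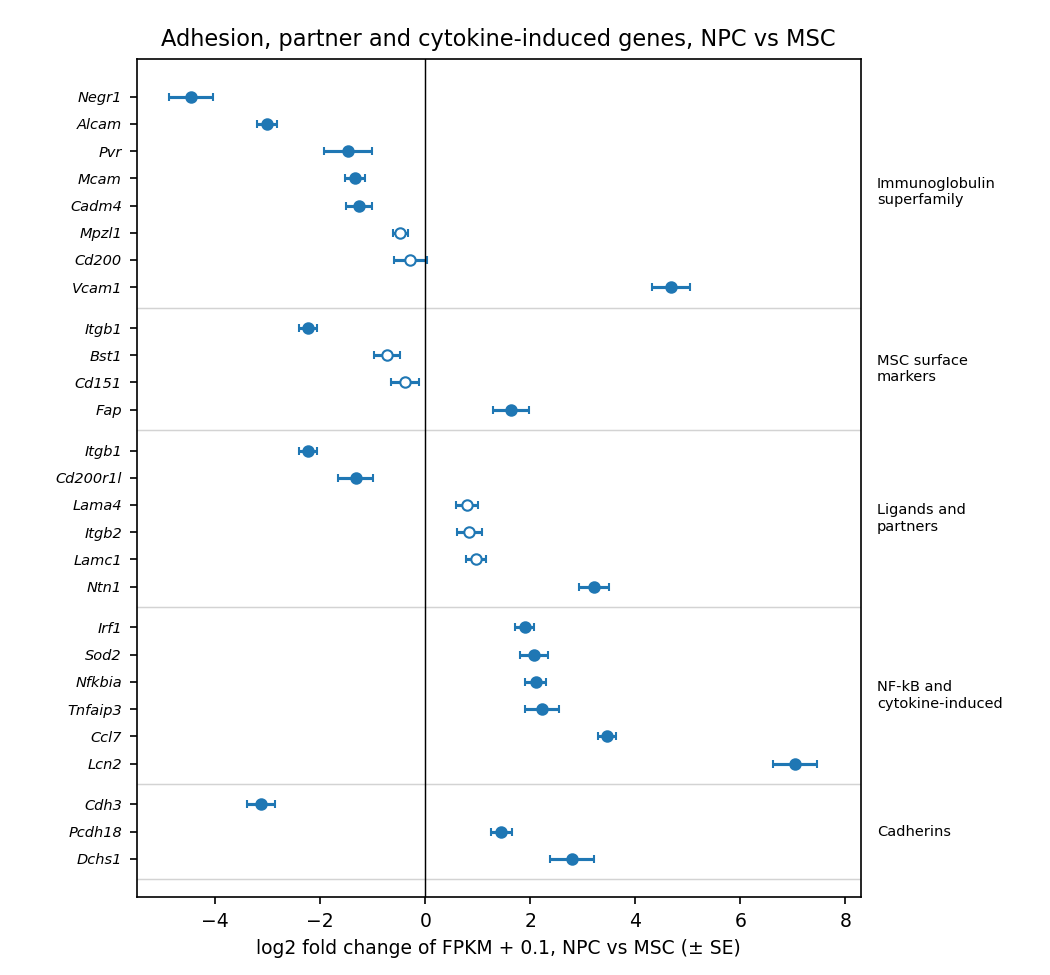
Log2 fold change of FPKM + 0.1 in NPCs against MSCs with its SE for the tested genes of 5 lists, with filled points for called genes and open points for others. Vcam1 is the one immunoglobulin superfamily gene to the right of 0, and all 6 cytokine-induced genes are to the right of it as well. The value of Negr1, listed at 0 in NPCs, is set by the pseudocount.

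Vcam1 is induced by inflammatory cytokines through NF-kB, so genes known for the same response were counted beside it. Of 36 listed genes 10 were named and 6 were tested in NPCs against MSCs, and all 6 were higher, with a median log2 fold change of 2.17. Over all genes tested 11.7% were called higher, and the median was 0.03. Of these 6, 5 were named from the table that the study filtered for change in these samples, so their number is not independent evidence of a direction. The 1 other, Ccl7, came from a table with no such filter. A part of NF-kB in the rise of Vcam1 was not tested. Ccl7, a monocyte chemokine, was at 4.77, 4.53 and 4.60 FPKM in MSCs and 47.2, 53.2 and 65.1 in NPCs (log2 fold change 3.47, limma adjusted p = 2.36e-05). Nfkbia, the inhibitor that NF-kB itself induces, was at 4.20, 3.89 and 4.63 FPKM in MSCs and 20.01, 16.3 and 22.1 in NPCs (log2 fold change 2.10, limma adjusted p = 0.000325). The feedback regulator Tnfaip3 rose by 2.23, the transcription factor Irf1 by 1.89 and the mitochondrial dismutase Sod2 by 2.08 on the log2 scale. Lcn2, a siderophore-binding protein, rose from 0.0281, 0.145 and 0.131 FPKM in MSCs to 18.3, 21.8 and 46.4 in NPCs, and as its MSC level is close to the pseudocount, its fitted log2 fold change of 7.04 depends on it. Its first MSC library is under 0.1 FPKM, so that Lcn2 passed the filter only with the induced libraries, where it is high. The count of 6 and the median above include it. The 4 genes left out by the filter included the endothelial selectins Sele and Selp, which share cytokine induction with Vcam1, and neither exceeded 0.0126 FPKM on average in any group. Tnf itself was listed at 0 in MSCs and 0.110 FPKM on average in NPCs. The same 6 were called higher in cells with IGF1 against MSCs. The chemokine Cxcl2 was listed at 0 in MSCs and was at 0.0602 FPKM on average in NPCs and 0.179 with IGF1, and passed the filter through the libraries with IGF1 alone, so its call there is not counted. No member of this list was called between the induced groups.

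Among 31 further surface markers of MSCs, 5 were named and 4 tested, with 1 higher and 1 lower in NPCs, or 1 call in all with annotated transcripts only. Over all genes tested, 11.7% were called higher and 9.88% lower. Both called markers were named from the table filtered for change. Itgb1, given above, was the lower one, and the higher one was Fap, a surface protease of activated fibroblasts, at 6.04, 7.89 and 6.10 FPKM in MSCs and 14.996, 40.3 and 16.9 in NPCs (log2 fold change 1.63, limma adjusted p = 0.00938). Bst1 and Cd151 were at 46.4 and 1.36 FPKM on average in MSCs and 29.7 and 1.08 in NPCs and were not called. Entpd1, the fifth, was under the filter. Of 24 cadherins and protocadherins 4 were named, all from the filtered table, and 3 tested. Cdh3 fell from 8.82 to 0.995 FPKM on average (log2 fold change -3.13, limma adjusted p = 0.000232), while Pcdh18 rose from 3.41 to 10.1 and Dchs1 from 0.0156 to 0.820. Dchs1 passed the filter only through the induced libraries, so that it could be tested only as higher there. Celsr1 was under the filter.

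Markers of cell types that carry VCAM1, MCAM or CD200 were set beside these results. Of 13 haematopoietic and macrophage markers 4 were named, and their summed level was 0.247 to 0.502 FPKM in MSC libraries, 9.76 to 11.5 in NPC libraries and 9.24 to 14.7 with IGF1. Nearly all of it was Cd68, a lysosomal glycoprotein of macrophages, at 0.344 FPKM on average in MSCs and 10.5 in NPCs. Both tested markers of this list were called higher in NPCs, Cd68 and the myeloid transcription factor Spi1, the latter at 0.0159 FPKM on average in MSCs and 0.173 in NPCs. Both were named from the table that the study filtered for change in these samples, so their number is not independent evidence of a direction. Over all genes tested, 11.7% were called higher and 9.88% lower. Spi1 passed the filter only through the induced libraries, so that it could be tested only as a gene that is higher there. Ptprc, the pan-leukocyte antigen CD45, and Aif1 were listed at 0 in all 3 NPC libraries and did not exceed 0.0134 FPKM on average in any group. Of 10 endothelial markers only Vwf was named, from the same filtered table, at 0.0080 to 0.0252 FPKM in MSC libraries and 0.228 to 0.520 in NPC libraries. Of 10 pericyte and smooth muscle markers 4 were named, and their sum was 4239.5 to 4801 FPKM in MSCs and 34.5 to 139 in NPCs, nearly all of it Tagln. The pericyte markers among them were not called in a single direction, and these calls are not independent evidence of one. Kcnj8 and Abcc9 were called lower, at 0.585 and 1.42 FPKM on average in MSCs and 0.177 and 0.392 in NPCs. Like Tagln, they were named from the filtered table. Rgs5 was called higher, at 0.153 and 0.734 FPKM on average (limma adjusted p = 0.042). The Rgs5 groups overlapped, since the first MSC library, at 0.335 FPKM, lay above the third NPC library, at 0.2945. The other MSC libraries, at 0.0488 and 0.0756 FPKM, were under 0.1, so that Rgs5 passed the filter only with the NPC libraries, where it is high. The part of these cell types in the fall of Mcam and the rise of Vcam1 was not tested.

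The labelled cell types were checked on the few markers that could be named. Vim, the 1 of 10 mesenchymal stromal markers that was named, was at 2560.2 to 3015 FPKM in MSC libraries and 674 to 879 in NPC libraries. Vim was named from the table filtered for change, so its fall is not independent evidence of a direction. Of 10 neural markers 4 were named and 2 were tested, and neither was called in NPCs against MSCs. Over all genes tested 21.6% were called. Nes was at 0.152, 0.145 and 0.0534 FPKM in MSCs and 0.293, 0.328 and 0.293 in NPCs. Its log2 fold change of 0.90 (limma adjusted p = 0.0407) did not reach the threshold of 1. As its MSC level is close to the pseudocount, this value depends on it. S100b was at 95.4 FPKM on average in MSCs and 123 in NPCs, and Dcx and Gfap were under the filter. None of 8 lymphoid markers was named.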

How the data were processed

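The members and gene lists were chosen with earlier results of these data known. Per the labels, reads were processed by the authors with CASAVA 1.8, bcl2fastq, TopHat, Bowtie2, Cufflinks and Cuffdiff, and no source used here names the build. The files deposited by the authors hold the FPKM of each assembled transcript, scaled within a library, with a 95% interval, and a score relative to the most abundant isoform, which was not used. Isoforms of a gene that shared exons on its strand were added. Genes needed 0.1 FPKM in 3 of the libraries fitted and an annotated transcript of 300 bases or more. After median-of-ratios scaling, limma 3.58.1 in R 4.3.3 was fitted to log2(FPKM + 0.1), for NPCs against MSCs in 6 libraries and for IGF1 in 9, with Benjamini-Hochberg adjustment, and the steps were tested on simulated data. Fragments and depth were read from the interval widths, taken as 2 Poisson SDs. Of 3591 gene IDs named in the study's tables, 2452 were in the files, 1002 of them from a table filtered for change. Those tables also hold the authors' own fold changes, which were not used. Genes named were the members, up to 6 of each list by call, size and then level, and the 3 genes most like each member. Alternatives were other pseudocounts, filters, scalings, isoform sets and library sets. Other steps used Python 3.11.15, pandas 2.3.3 and scipy 1.17.1.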

Additional observations from a re-analysis of the deposited data

Results flagged for a closer look

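An unannotated transcript on the strand of Vcam1 was assembled beyond its 3' end in the second NPC library at 1.41 FPKM (428 bases, 13 implied fragments). It was picked out because it lies outside the gene sums compared in the report and no such transcript was assembled in an MSC library or in any of the other 5 induced libraries.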

How the results depend on the processing

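The calls of Alcam, Mcam and Vcam1 against MSCs, and the lack of a call for Cd200, held under every alternative in which the gene was tested. In NPCs against MSCs the log2 fold change ran from -3.14 to -2.59 for Alcam, from -1.52 to -1.18 for Mcam, from 2.24 to 5.93 for Vcam1 and from -0.55 to -0.05 for Cd200. Vcam1 passed the filter in NPC libraries alone, so it was not tested in the planned fits of NPCs against MSCs without 1 of them. Its values there come from fits with a filter in 2 libraries, chosen after seeing the data. Between the induced groups no member was called under any alternative, and some signs turned: Cd200 was at 0.011 with no rescaling and 0.12 with annotated transcripts only, where Vcam1 was at 0.039. Leaving out 1 library there gave -0.082 to 0.15 for Alcam, -0.47 to 0.12 for Vcam1 and -0.10 to 0.18 for Cd200. Genes called in NPCs against MSCs numbered 1715 with a pseudocount of 1 and 1191 with annotated transcripts only, against 2955, and with IGF1 against MSCs 1758 and 1499, against 3045. Between the induced groups 3 genes became 5 with no filter, 5 without the eBayes trend, 19 with annotated transcripts only, 9 with genes of every length, and 1 to 10 without 1 library. Deviations of same-numbered libraries of NPCs and MSCs from their group means had correlations of 0.036, 0.103 and 0.008 over genes. Those of libraries with different numbers ran from -0.085 to 0.046. With 3 libraries in a group, such values cannot show whether the numbers mark pairs. NPCs were derived from the study's MSCs, but the labels do not say that a number marks a shared origin. With the replicate number as a block 1 gene was called between the induced groups, and no call of a member changed. Taken over the annotated isoform instead of the gene sum, the Mcam isoforms without exon 15 came to 20.7 to 36.3%. Depth limits Vcam1 in MSCs, where 3.0 to 9.59 fragments were implied.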

Other observations

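Beyond both ends of Alcam, unannotated transcripts on its strand were assembled in 8 of the 9 libraries, outside the gene sum. In the second MSC library the long isoform overlaps their positions but does not cover all of them in full. Upstream they held 48.3 and 47.6 implied fragments per 100 bases in the first and the third MSC libraries, and 8.63 to 14.98 in the 6 induced libraries. Downstream they held 21.4 and 24.7 in the same MSC libraries and 3.61 to 10.4 in the induced ones. By fragments per 100 bases these pieces differ in the direction of Alcam itself, in fragments that its sum does not contain. The FPKM of the pieces does not show this, since the groups overlap at both ends. Upstream it was 34.1 and 39.0 in MSCs and 7.84 to 45.1 in the induced libraries. Downstream it was 5.23 and 5.63 in MSCs and 1.31 to 5.80 in the induced libraries. The upstream pieces of the induced libraries are 152 to 269 bases long and those of the MSC libraries 275 and 294. The downstream pieces are 260 to 824 bases long in the induced libraries and 1369 and 1443 in the MSC libraries. The part of length in this was not tested.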
